A study of Homo sapiens with 4 samples.

Results

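The genes described here are 6 members of the RAS subfamily of small GTPases, NRAS, HRAS, MRAS, RRAS, RRAS2 and RIT1. They were taken by symbol from a table of 57815 rows, and each had 1 row. The family was chosen by a measured value, the low MRAS level after knockdown in MKN1 cells, and its members by family. The values of MRAS are therefore given as a description, with no test.

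The study knocked down HOXB9, a homeobox transcription factor, in gastric cancer cells and sequenced their polyadenylated RNA. The cells were the established human lines AGS and MKN1. Each line was transfected, with a lipid reagent, with a scrambled small interfering RNA (siScramble, genotype labelled WT) or with one against HOXB9 (siHOXB9, genotype labelled HOXB9 knockdown). The 2 siRNA treatments in 2 lines made 4 groups of 1 library each. There was no replicate within a line, and the labels used here give neither the time after transfection nor the number of different siRNAs.

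RAS proteins are molecular switches that are active when bound to GTP and inactive when bound to GDP. Exchange factors such as SOS1 load them with GTP after growth factor receptors are engaged, and GTPase-activating proteins such as neurofibromin (NF1) switch them off. Active RAS binds effectors, among them the RAF kinases at the head of the RAF-MEK-ERK cascade and phosphoinositide 3-kinases. HRAS and NRAS are classical RAS proteins, and RRAS, RRAS2 (also called TC21) and MRAS form a related branch. MRAS, with SHOC2 and protein phosphatase 1, forms a phosphatase complex that removes an inhibitory phosphate from RAF. RIT1 lacks the lipid-modified tail by which most RAS proteins attach to membranes.

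The transcripts of the 6 genes can be told apart. No word of 50 bases occurred in the annotated transcripts of more than 1 of the 6 genes, so reads of that length would not be shared among them. Against all other annotated genes, 0 words of NRAS, HRAS and RRAS were shared. MRAS shared 2 of 6500 words with SERPINF1, RIT1 shared 3 of 3963 words, and RRAS2 shared 267 of 3531 words (7.56%), all with AL445183.3. In GENCODE (GRCh38), 0 exonic bases of any of the 6 overlap an exon of another gene on either strand. MRAS (ENSG00000158186.12) spans chr3:138347648-138405534 and has 8 annotated coding transcripts of 271 to 4538 bases, whereas NRAS (ENSG00000213281.4, chr1:114704469-114716894) has 1, of 4449 bases. The table gives 1 value per gene and does not separate transcripts.

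HOXB9 itself was at 16.4 FPKM in AGS with siScramble and 4.44 with siHOXB9, or 27.0% of control. In MKN1 it was at 1.14 and 0.218 FPKM, or 19.1% of control, so it was already low in the control of that line. With 1 FPKM added, the log2 change of HOXB9 was -1.68 in AGS and -0.81 in MKN1. The MKN1 change fell short of 2-fold on that scale, and 2.94% of genes tested there were lower by at least as much. Over both lines its log2 estimate was -1.25 (SE 0.268, adjusted p = 0.355 in limma). FPKM are fragments scaled to transcript length and library depth, as computed by the authors, so levels of different genes can be compared per length. The depth, estimated from the steps of low values, was 10630000 to 13040000 fragments per library. Of 6 epithelial markers, KRT8 (1077 to 1880 FPKM) and KRT18 were high in all libraries, EPCAM and KRT19 were high in AGS and at 2.02 to 2.70 FPKM in MKN1, and CDH1 stayed at or under 3.28 FPKM. The endothelial markers with a row summed to at most 2.02 FPKM, with KDR at 0 in all libraries. The 6 leukocyte markers summed to 2166 to 2200 FPKM in AGS, nearly all of it LYZ, and to 14.2 and 15.5 FPKM in MKN1, of which CD68 made up 12.02 and 12.72, while CD3E was at 0 and PTPRC at or under 0.0183 FPKM. The 6 fibroblast markers summed to 16.1 (siScramble) and 30.9 FPKM (siHOXB9) in AGS and to 45.9 and 58.6 FPKM in MKN1. Most of that was COL1A1, and COL1A2 was at 0 in all libraries. The part of these differences in the results below was not tested.

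MRAS was the member with the largest difference between siHOXB9 and siScramble within a line. Its level was 1.30 FPKM in AGS siScramble, 2.80 in AGS siHOXB9, 17.8 in MKN1 siScramble and 2.64 in MKN1 siHOXB9. The MKN1 control library alone was high, and both siHOXB9 libraries lay close together. MRAS was thus at 14.8% of its control in MKN1 and at 215% in AGS. After adding 1 FPKM and taking log2, the scale of every change below, it differed by -2.37 in MKN1 and 0.72 in AGS. The changes thus had opposite signs in the lines, and the difference between their changes was -3.09. With 1 library per group that difference could not be tested. Among 11547 genes measured in both lines, 0.225% had changes that differed by as much, and the median difference was 0.30 in size. The difference includes the MKN1 value for which the family was chosen, so nothing follows from this rank.

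If all MRAS fragments came from its longest coding transcript, the estimated numbers were 876 against 120 in MKN1 and 72.7 against 150 in AGS. Shorter transcripts would give fewer, so both AGS values and the MKN1 siHOXB9 value rest on few fragments. In MKN1, 22 of 13122 genes tested (0.168%), MRAS among them, were lower with siHOXB9 by at least as much. The family was chosen for that fall, so nothing follows from this rank either. In AGS, 3.67% of 13252 genes were higher by at least as much as MRAS. The nearest coding genes on each side of MRAS were low. NME9, on one side, was at or under 0.06 FPKM in every library. ESYT3, on the other, was at 0.919 and 1.22 FPKM in MKN1 siScramble and siHOXB9 and at or under 0.002 FPKM in AGS. In bulk RNA, fewer cells with a transcript and less of it per cell cannot be told apart.

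**Figure D1:**
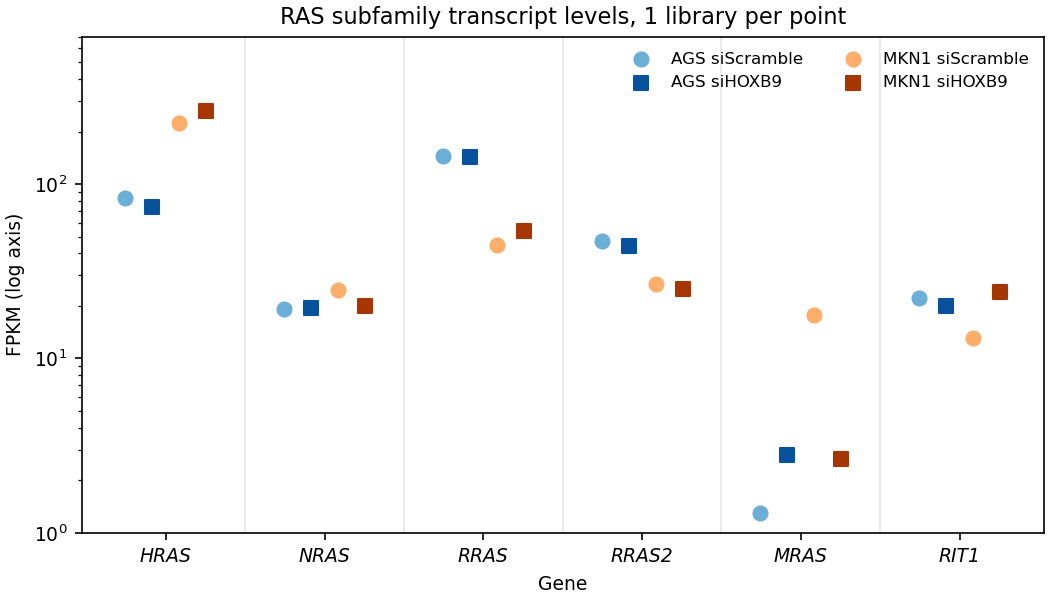
FPKM of the 6 RAS subfamily genes on a log axis, with 1 point per library (circles siScramble, squares siHOXB9, blue AGS, orange and brown MKN1). MRAS is at 17.8 FPKM in MKN1 siScramble and at 1.30 to 2.80 FPKM in the other libraries, while the points of NRAS all lie between 19.3 and 24.8 FPKM.

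RIT1 had the next largest difference between siHOXB9 and siScramble within a line. It was at 22.2 FPKM in AGS siScramble, 20.1 in AGS siHOXB9, 13.1 in MKN1 siScramble and 24.0 in MKN1 siHOXB9. The MKN1 control was the lowest of the libraries, and the siHOXB9 library of that line was the highest. In MKN1 the siHOXB9 value was 1.83 times the control (log2 0.83), a difference reached upward by 3.60% of all genes tested there. In AGS the change was -0.14. KHDC4 (listed as KIAA0907), whose near end lies 1639 bases from RIT1, was at 25.3 and 23.0 FPKM in MKN1.

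The classical genes NRAS and HRAS had changes of less than 0.3 on the log2 scale. NRAS was at 19.3 and 19.4 FPKM in AGS (log2 0.01) and at 24.8 and 20.1 in MKN1 (log2 -0.29), siScramble first. HRAS was at 83.5 and 73.6 FPKM in AGS (log2 -0.18) and at 225 and 264 in MKN1 (log2 0.23). In MKN1 13.7% of all genes were lower by at least as much as NRAS. Changes at least as large as those of HRAS, in the same direction, were seen in 34.98% of all genes in AGS and 32.3% in MKN1.

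RRAS and RRAS2 were in the same range of change. RRAS, linked to integrin activity and cell adhesion, was at 144.2 FPKM in AGS siScramble, 143.9 in AGS siHOXB9, 45.04 in MKN1 siScramble and 53.96 in MKN1 siHOXB9. Its log2 changes were -0.0029 and 0.26. RRAS2 was at 46.9 and 44.4 FPKM in AGS (log2 -0.08) and at 26.7 and 24.9 in MKN1 (log2 -0.10). The sign of the AGS change of RRAS turned when libraries were rescaled, centred or quantile normalized, and that of RRAS2 when rescaled, so neither has a direction in AGS. The signs of MRAS in both lines and of RIT1 in MKN1 held under each of these scalings.

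**Figure D2:**
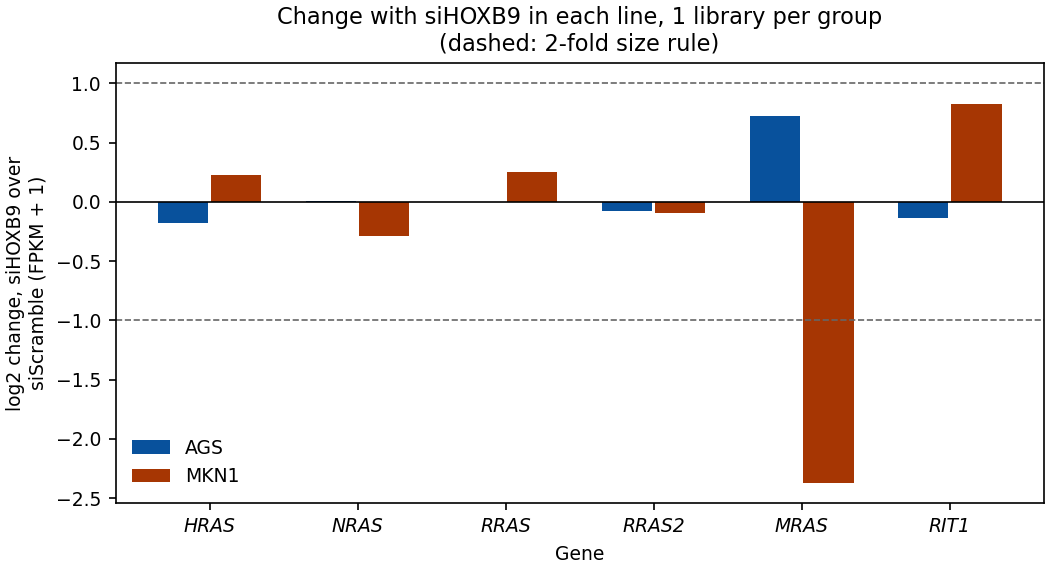
Bars give the log2 change of each gene with siHOXB9 over siScramble (1 FPKM added), blue in AGS and brown in MKN1, each from 1 library per group; dashed lines mark a 2-fold difference. Only the MRAS bar in MKN1, at -2.37, passes a dashed line, and MRAS in AGS (0.72) and RIT1 in MKN1 (0.83) come next.

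By a size rule of 2-fold, applied where either library of a line reached 1 FPKM, 0 of the 6 genes differed in AGS, where 3.89% of all genes tested did. In MKN1 1 of 6 differed, MRAS, where 4.05% of all genes did. The set was chosen for that value, so nothing follows from the count. The median change of the 6 genes was -0.04 in AGS and 0.07 in MKN1, beside -0.06 and 0.09 over all genes tested. With 0.1 FPKM added in place of 1, MRAS passed the rule in AGS as well (log2 1.05), upward, and it alone of the 6 in MKN1, downward. With that setting 7.83% of all genes passed in AGS (3.41% higher and 4.41% lower) and 7.81% in MKN1 (4.34% higher and 3.47% lower). By a rule of 1.5-fold, MRAS passed upward in AGS, where 14% of all genes passed and 5.64% upward. In MKN1 MRAS passed downward and RIT1 upward, where 13.4% of all genes passed and 7.96% upward.

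**Figure D3:**
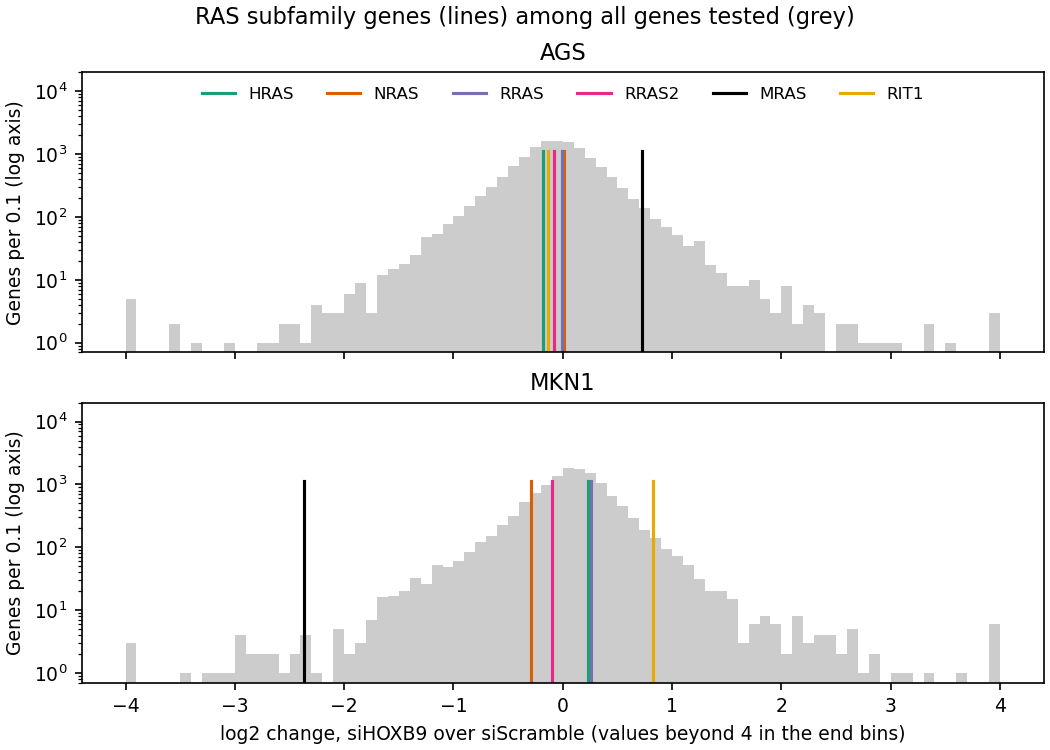
Grey bars count all genes tested per 0.1 of log2 change (siHOXB9 over siScramble, log count axis) in AGS (top) and MKN1 (bottom), and coloured lines mark the 6 RAS subfamily genes. Most lines lie in the middle of the grey distribution, and MRAS in MKN1, at -2.37, lies in its lower tail with 22 genes at or below it. The family was chosen for that MRAS value.

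Over both lines, limma with terms for line and siRNA called 1 of 13758 genes at an adjusted p under 0.05 (0.00727%), RP11-192N10.2, which is no member. Of the 5 members other than MRAS, 0 had an adjusted p under 0.05 and 0 an unadjusted p under 0.05, a level reached by 7.12% of all genes. The estimate (siHOXB9 minus siScramble, log2) was 0.34 for RIT1 (SE 0.258, adjusted p = 0.863 in limma), the largest in size of these. RRAS (0.13), HRAS (0.02), RRAS2 (-0.09) and NRAS (-0.14) had standard errors of 0.172 to 0.192 and adjusted p of 0.941 to 0.993. The fit has 1 residual degree of freedom, the disagreement of the lines, and limma moderates each gene's variance by the spread over all genes fitted. Changes of opposite sign, such as those of MRAS, partly cancel in this estimate.

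The lines differed in which RAS gene was the most abundant. In AGS the order of levels was RRAS, HRAS, RRAS2, RIT1, NRAS and MRAS, and the values of neighbours in this order did not overlap between the siScramble and siHOXB9 libraries. In MKN1 the order was HRAS, RRAS, RRAS2, NRAS, RIT1 and MRAS. There NRAS (20.1 to 24.8 FPKM), RIT1 (13.1 to 24.0) and MRAS (2.64 to 17.8) overlapped with their neighbours.

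HRAS was higher in MKN1 than in AGS, 2.70-fold between the siScramble and 3.59-fold between the siHOXB9 libraries. Its log2 difference was 1.63 (SE 0.180, adjusted p = 0.000248 in limma). RRAS was lower in MKN1 in both pairs of libraries, by -1.53 on the log2 scale (SE 0.172, adjusted p = 0.000269 in limma). RRAS2 was lower in MKN1 by -0.80 (SE 0.174, adjusted p = 0.00604 in limma), which passed the threshold of p and not the 2-fold size. NRAS (0.20, SE 0.192, adjusted p = 0.407 in limma) and RIT1 (-0.24, SE 0.258, adjusted p = 0.453 in limma) did not pass. Of the 5 members other than MRAS, 2 thus passed both thresholds, where 37.1% of all genes did. In each direction it was 1 member, beside 16.2% of all genes higher and 20.9% lower in MKN1. Here the siScramble and siHOXB9 libraries of a line stand in for replicates. MRAS was 13.7-fold higher in MKN1 between the siScramble libraries and at 0.941 of the AGS level between the siHOXB9 libraries, given as a description.

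As a share of the summed FPKM of the 6 genes, RRAS made up 45.4% in AGS siScramble and 47.3% in AGS siHOXB9, and HRAS 26.3% and 24.2%. In MKN1, HRAS made up 63.9% with siScramble and 67.8% with siHOXB9, and RRAS 12.8% and 13.8%. MRAS went from 5.05% to 0.677% in MKN1 and from 0.410% to 0.921% in AGS. It had the smallest share in every library but MKN1 siScramble, where RIT1 was lower at 3.71%. The sum itself was 317 and 304 FPKM in AGS and 353 and 390 FPKM in MKN1, siScramble first. In MKN1 the sum was thus higher with siHOXB9 although MRAS was lower.

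**Figure D4:**
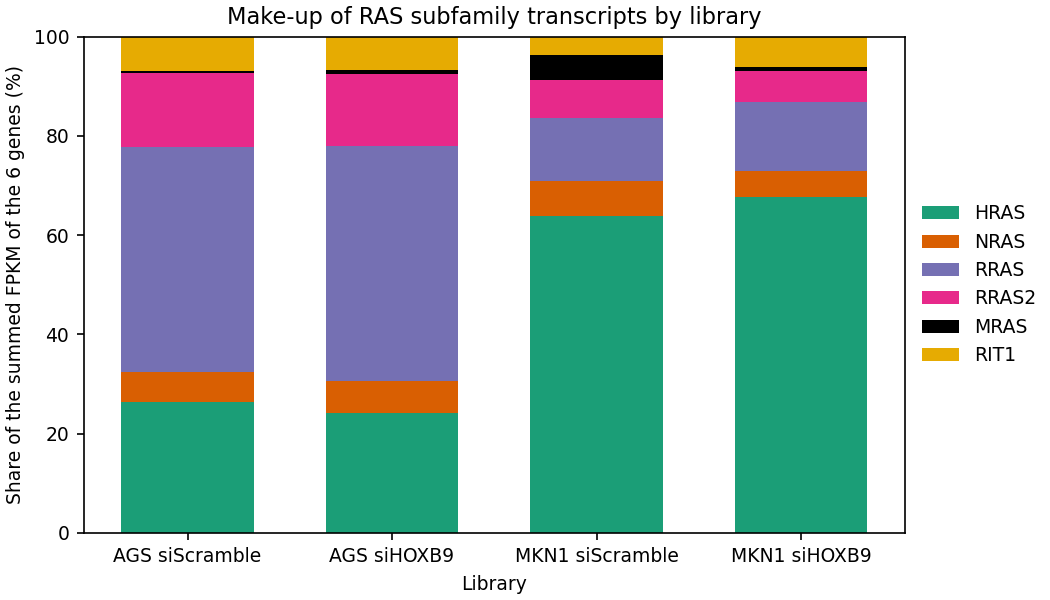
Stacked bars give each gene's share of the summed FPKM of the 6 RAS subfamily genes in each library, to 100%. RRAS is the widest band in AGS (45.4% and 47.3%) and HRAS in MKN1 (63.9% and 67.8%), and the black MRAS band is visible mainly in MKN1 siScramble (5.05%).

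The transcripts whose pattern was nearest to that of MRAS were sought among 9677 coding genes, MRAS included, that reached 5 FPKM in any library, by the Euclidean distance of centred log2 values over the 4 libraries. The nearest was CD274, which encodes the immune checkpoint ligand PD-L1, at a distance of 0.624. It was at 1.03 and 1.77 FPKM in AGS and at 8.45 and 1.97 FPKM in MKN1, siScramble first. MSRA, a methionine sulfoxide reductase, followed at 0.938, with 2.33 and 6.06 FPKM in AGS and 15.3 and 6.18 in MKN1. HIST1H2BJ, a histone H2B gene, was at 1.05, NT5M, a mitochondrial nucleotidase, at 1.14 and RAB30, a RAB GTPase, at 1.14. In each of these 5 genes, as in MRAS, the MKN1 siScramble library was the highest of the libraries and the AGS siScramble library the lowest. The genes were picked for closeness to MRAS over these same values, so the shared order follows from the choice and nothing follows from it.

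HOX proteins bind short motifs rich in A and T, and those of the posterior group, to which HOXB9 belongs, are known to favour sites of the kind TTTATG or TTTACG. Windows of 300 bases (250 before to 50 after an annotated start, RefSeq, GRCh38.p14) were listed for 5 of the 6 genes, 11 in all. They were searched on both strands for these motifs and for TAATTA, a general homeodomain motif. Matches were found in windows of MRAS and RIT1 and are shown with the motif in capitals.

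MRAS, TTTATG on the opposite strand: cgcagcctgcttCATAAAcaacccttcact

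MRAS, TAATTA: accctttcatggTAATTAcagttccttggc

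RIT1, TTTACG on the opposite strand: actgtgccgagaCGTAAAtttatttgtatc

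The MRAS stretches lie at chr3:138349207-138349236 and chr3:138349022-138349051 on the forward strand, both in the same 1 of 3 windows. The RIT1 stretch lies at chr1:155911049-155911078 on the reverse strand, in 1 of 2 windows. Such matches are common. Of 35116 windows in the RefSeq table, 10.6% held TTTATG, 3.12% TTTACG and 4.84% TAATTA. They describe letters in a window, and no binding was measured.

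The other genes of the pathway were described from 10 lists of 154 genes, all with a row. By the 2-fold size rule, 4 of 126 tested were higher and 2 lower in AGS, and 1 of 117 was higher and 1 lower in MKN1, beside 1.68% of all genes higher and 2.21% lower in AGS and 2.1% and 1.94% in MKN1. The shares were not compared by a test. Values below are in the order siScramble against siHOXB9.

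Upstream of RAS, 0 of 7 exchange factors tested in AGS were higher by the size rule and 1 was lower, and of 4 tested in MKN1 0 passed in either direction. RASGRP2 was at 2.03 against 0.227 FPKM in AGS (log2 -1.31). RAPGEF1, an exchange factor for the related RAP proteins, was at 16.0 against 27.3 FPKM in MKN1 (log2 0.74). RAPGEF2, of the same kind, was at 14.6 against 24.2 FPKM in AGS (log2 0.69) and RASGRP1 at 3.97 against 5.69 (log2 0.43). SOS1, the main exchange factor downstream of growth factor receptors, was at 6.22 against 5.49 FPKM in AGS and 5.45 against 7.17 in MKN1. Among receptor adaptors, 2 of 13 tested in AGS were higher: SHC2 at 21.3 against 54.6 FPKM (log2 1.32) and FRS2, an adaptor of fibroblast growth factor receptors, at 8.08 against 19.1 (log2 1.15). In MKN1 0 of 12 passed, and FRS2 was at 19.1 against 19.5 FPKM. SHC1, the ubiquitous relative of SHC2, was at 346 against 295 FPKM in MKN1 and IRS2, an insulin receptor substrate, at 15.8 against 12.9.

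Of 9 GTPase-activating proteins and their partners tested in each line, 0 passed the size rule in AGS and 0 in MKN1. NF1 was at 14.3 against 16.1 FPKM in AGS and 4.36 against 5.56 in MKN1. SPRED1 and SPRED2, which recruit neurofibromin, had log2 changes of -0.44 and -0.37 in AGS and 0.20 and 0.11 in MKN1. SPRED2 was the more abundant, at 40.1 against 30.8 FPKM in AGS and 15.5 against 16.8 in MKN1. In MKN1 the list's median was 0.11, beside 0.09 over all genes.

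MRAS acts on RAF through SHOC2 and protein phosphatase 1, and 0 of the 7 genes of this list passed the size rule in either line. SHOC2, the scaffold of the complex, was at 8.49 against 5.16 FPKM in MKN1 (log2 -0.62) and at 6.55 against 7.42 in AGS (log2 0.16). SHOC2 and LRRC1 (log2 0.12 in AGS and -0.05 in MKN1) had the same signs as MRAS in both lines, with smaller sizes. The other genes of the list did not. The share of all genes with these signs is not given here, and the match was not tested. PPP1CC, a catalytic subunit, was at 113 against 63.5 FPKM in MKN1 (log2 -0.82) and 97.2 against 68.2 in AGS (log2 -0.50). ERBIN (listed as ERBB2IP) was at 15.4 against 12.1 FPKM in AGS. The list's median was -0.08 in AGS and -0.05 in MKN1.

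In the RAF-MEK-ERK list, 1 of 11 genes tested in MKN1 passed, downward, and 0 of 11 in AGS. LAMTOR3, a scaffold for MEK and ERK on late endosomes, was at 11.3 against 4.65 FPKM in MKN1 (log2 -1.13) and 21.7 against 22.8 in AGS. KSR1, a kinase-like scaffold of the cascade, was at 24.5 against 16.8 FPKM in AGS and 14.4 against 10.4 in MKN1. IQGAP1, another scaffold, was at 44.1 against 60.4 FPKM in AGS. Of the effectors outside this branch, 0 of 17 passed in AGS and 1 of 14 in MKN1, RGS12, at 2.51 against 15.1 FPKM (log2 2.19). PIK3CA, a catalytic subunit of phosphoinositide 3-kinase, was at 5.79 against 3.05 FPKM in MKN1 (log2 -0.75). RGL3, a RAL exchange factor, was at 43.7 against 64.2 FPKM in AGS and 5.03 against 7.75 in MKN1, 0.54 on the log2 scale in each, and RASIP1 was at 29.1 against 18.0 FPKM in AGS.

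The list of RAS processing and trafficking held 22 genes, among them enzymes that add or remove lipids, carriers and a deubiquitinase. Of these 22, 0 passed the size rule in each line, where 3.89% (AGS) and 4.05% (MKN1) of all genes did. PGGT1B, a subunit of a geranylgeranyl transferase, was at 6.89 against 12.4 FPKM in MKN1 (log2 0.77), and LYPLA2, a depalmitoylating enzyme, at 85.9 against 125 (log2 0.54). LGALS1, galectin 1, was at 1671 against 1195 FPKM in AGS, and the deubiquitinase USP9X at 12.4 against 18.7. Of 9 genes linked to turnover of RAS proteins, 1 was higher in AGS by the size rule, the ubiquitin ligase NEDD4, at 3.82 against 9.57 FPKM (log2 1.13), and 0 passed in MKN1. LZTR1, the adaptor that brings RIT1 and other RAS proteins to a CUL3 ubiquitin ligase, had log2 changes of 0.56 in AGS (28.8 against 43.0 FPKM) and 0.08 in MKN1 (16.3 against 17.3 FPKM). NEDD4 was at 9.42 against 11.1 FPKM in MKN1, and RABGEF1, an exchange factor of RAB proteins, was at 4.95 against 7.33 FPKM in MKN1.

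Genes that are commonly used to read ERK output went in different directions. In AGS 4 of 19 tested were above 0, where 43.0% of all genes were, and the median was -0.32, beside -0.06 over all genes. By the size rule 1 passed downward and 1 upward. ETV4, an ETS transcription factor, was at 58.3 against 23.5 FPKM (log2 -1.28), and EMP1, a membrane protein, at 3.61 against 9.91 (log2 1.24). In MKN1 0 of 18 passed and the median was 0.13, beside 0.09 over all genes. There CCND1, cyclin D1, was at 195 against 310 FPKM (log2 0.66) and FOS at 5.34 against 2.29 (log2 -0.95).

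Of 15 other RAS family GTPases tested in AGS and 14 in MKN1, 0 passed the size rule. RAP2C was at 16.6 against 32.9 FPKM in AGS (log2 0.95) and GEM, an inhibitor of calcium channels, at 6.66 against 3.36 (log2 -0.81). RAP1B had log2 changes of -0.44 in AGS (161 against 118 FPKM) and -0.46 in MKN1 (117 against 84.9 FPKM). RAP2B was at 5.07 against 3.00 FPKM in MKN1 (log2 -0.60).

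**Figure D5:**
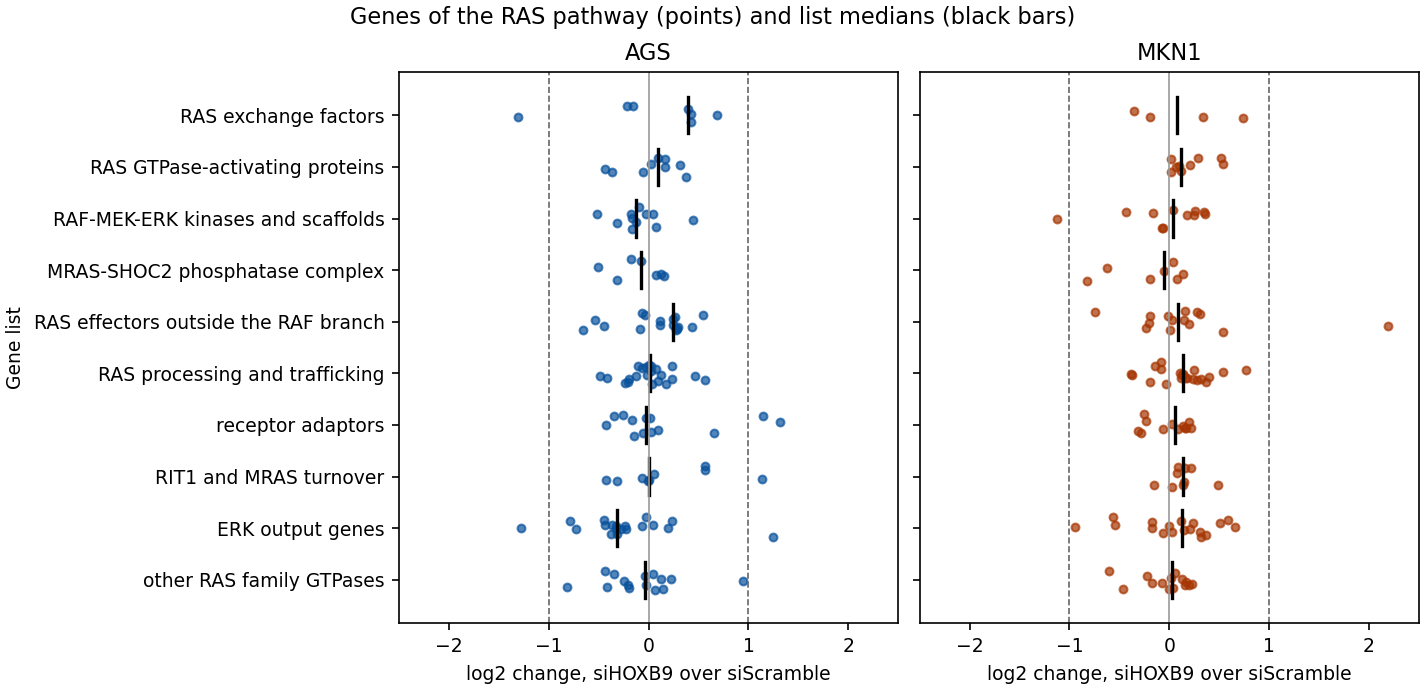
Points give the log2 change (siHOXB9 over siScramble, 1 FPKM added) of each tested gene of 10 RAS pathway lists in AGS (left) and MKN1 (right); black bars are list medians and dashed lines mark a 2-fold difference. The ERK output list has its median at -0.32 in AGS and 0.13 in MKN1, and RGS12 stands alone at 2.19 in MKN1.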

How the data were processed

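RNA-seq of 4 libraries was deposited as 1 table of FPKM values, computed by the authors, with a gene symbol per row and a column per library. The columns sum to 777152 to 831098. Per the submitters' processing notes the genome was GRCh38 (hg38). Aligner, counter, annotation and any use of strand are not given in these sources. Per the labels' protocols, RNA was selected by poly-T beads. The title of 1 MKN1 sample spells the line differently, and its cell line field gives MKN1.

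The FPKM values were used as deposited. Changes within a line were log2((siHOXB9 + 1)/(siScramble + 1)), with 1 FPKM as pseudocount, for genes that reached 1 FPKM in either library. Nothing was tested within a line, since each group has 1 library. limma 3.58.1 (R 4.3.3) was fitted to log2(FPKM + 1) with line and siRNA and an intensity trend, for genes that reached 1 FPKM in 2 or more libraries, two-sided, with Benjamini-Hochberg adjustment over all of them, and was tested on simulated data. Calls between lines also needed a 2-fold difference. limma moderates the variance of each gene toward a trend over all genes fitted. The p-values thus rest on that shared spread as well as on the gene's own 1 residual degree of freedom. Since the lines are the only repeat, this spread is the disagreement between lines or siRNAs and carries no replicate of a culture.

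Depth was estimated from single-transcript genes, where 61.7% to 62.9% of low values came within 0.05 of whole fragments after shortening transcripts by 260 bases. Fragment numbers are estimates and no counting interval was given. Gene models came from GENCODE 29 (GRCh38) and start-site windows from RefSeq.

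Named were HOXB9, all 6 members, the 5 genes most like MRAS, its neighbours on each side, and, per pathway list and line, the 2 largest changes among genes that reached 5 FPKM there and any gene past the size rule. KHDC4 and RP11-192N10.2 were added after their values were seen. The members and lists were chosen with earlier results of these data known. Alternatives were the pseudocount, filters, rescaling, centring, quantile normalization, the size rule and the options of limma.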

Additional observations from a re-analysis of the deposited data

How the results depend on the processing

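The change of MRAS ranged over pseudocount and scaling alternatives from 0.69 to 1.05 in AGS and from -2.71 to -2.37 in MKN1, and that of RIT1 in MKN1 from 0.69 to 0.87. With a pseudocount of 0.1 FPKM, 1037 genes passed the size rule in AGS (516 by the main rule) and 1025 in MKN1 (531), and 1 of the 6 members passed in AGS. With a filter of 5 FPKM, 256 and 257 genes passed. With a 1.5-fold rule, 1856 and 1752 genes passed, with 1 member in AGS and 2 in MKN1. The share of passing genes that were higher was 43.2% in AGS (223 higher, 293 lower), 53.6% with libraries rescaled (272 and 235) and 51.7% after centring (266 and 249). In MKN1 it was 52.0% (276 and 255) and 39.7% after centring (205 and 311). For siHOXB9 over both lines, limma called 1 gene by the main settings. It called 0 with a pseudocount of 0.1 FPKM, without a filter, after rescaling, after quantile normalization and without the line, 8 with a filter of 5 FPKM and 7 with the robust option. None of these calls was a member. Between the lines 5109 genes were called, and 2750 without a filter, and HRAS and RRAS passed under each alternative run for that contrast, namely the pseudocount, both filters, rescaling, quantile normalization, no trend and the robust option (adjusted p in limma 5.89e-05 to 0.0484 for HRAS and 7.39e-05 to 0.0435 for RRAS). The cause of these shifts was not tested. The labels carry no replicate numbers to pair by, so the fit with the line as a term, which compares the siRNAs within each line, is the only pairing. Leaving out a library leaves no residual degree of freedom. MRAS rests on an estimated 72.7, 150 and 120 fragments at most in the AGS libraries and in MKN1 siHOXB9, which limits the precision of its changes in both lines.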
